A study of Mus musculus with 12 samples.

Results

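The brain response to lipopolysaccharide (LPS) in adult male C57BL6 mice that had received tetrahydrocannabinol (THC) in adolescence was measured as the difference between 2 groups of whole-transcriptome libraries, THC_LPS (3 libraries) and THC_Ctrl (3 libraries). These are 6 of the 12 libraries of the study. All 25556 genes of the joined raw count tables entered, and 17208 of them had enough reads to be tested. THC_LPS mice received THC at 5 mg/kg by intraperitoneal injection each day from postnatal day 30 to 44, then LPS at 0.33 mg/kg on day 70. THC_Ctrl mice received the same THC course and then saline on day 70. Veh_LPS and Veh_Ctrl mice (3 libraries each) received 8% Tween-80 in saline in place of THC, followed by LPS or saline, and are used here only for comparison. All brains were collected 24 hours after LPS or saline. The labels name the tissue only as brain, with no region, and leave open whether each library stands for its own mouse or litter, so the tests measure the spread between these libraries. The question here is how the brain transcriptome of mice exposed to THC answered this immune challenge.

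LPS is a component of the outer membrane of Gram-negative bacteria. It is sensed by the TLR4 receptor with its co-receptors CD14 and MD-2, which activates NF-kB and, through the adaptor TRIF, IRF transcription factors and the type I interferons. Interferons then act through STAT and IRF proteins on promoters that hold the interferon-stimulated response element (ISRE), switching on genes that block viral replication and raise antigen presentation. After LPS is given in the periphery, brain endothelial cells, perivascular macrophages, microglia and astrocytes are known to respond, and leukocytes can adhere to activated vessels. THC is the main psychoactive compound of cannabis and acts at the CB1 receptor, which is abundant on neurons, and at the CB2 receptor, which is found mostly on immune cells.

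The THC_LPS libraries held 16.7, 22.4 and 20.3 M counted reads and the THC_Ctrl libraries 24.7, 24.9 and 25.6 M. Brain markers were abundant in all 6 libraries. The lowest values were 684 CPM (read counts scaled to the size of the library) for Slc17a7 of excitatory neurons, 387 for Gad1 of inhibitory neurons, 169 for Aqp4 of astrocytes and 22.7 for Cx3cr1 of microglia. THC_LPS replicate 3 stood apart from the other libraries. Its read counts fell with the GC content of the transcript, with a Spearman correlation of -0.81 across genes, while the other 11 libraries of the study lay between -0.14 and 0.31 (genes are not independent replicates). Mitochondrially encoded genes took 9.11% of its reads and 4.11% to 7.11% of the reads of the other 11. Summed CPM of Hox and caudal glycinergic genes, markers of hindbrain and spinal cord tissue, ranged from 11.4 to 84.1 in THC_LPS libraries and from 20.2 to 84.8 in THC_Ctrl libraries. The level of these markers was thus uneven within both groups. The lowest THC_LPS sum was that of replicate 3, and whether tissue content or the GC trend lay behind it was not tested. Because of the GC trend, values are given for each library in the order of replicates 1, 2 and 3, and each main result was also fitted after a smooth GC trend had been removed from every library.

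**Figure D1:**
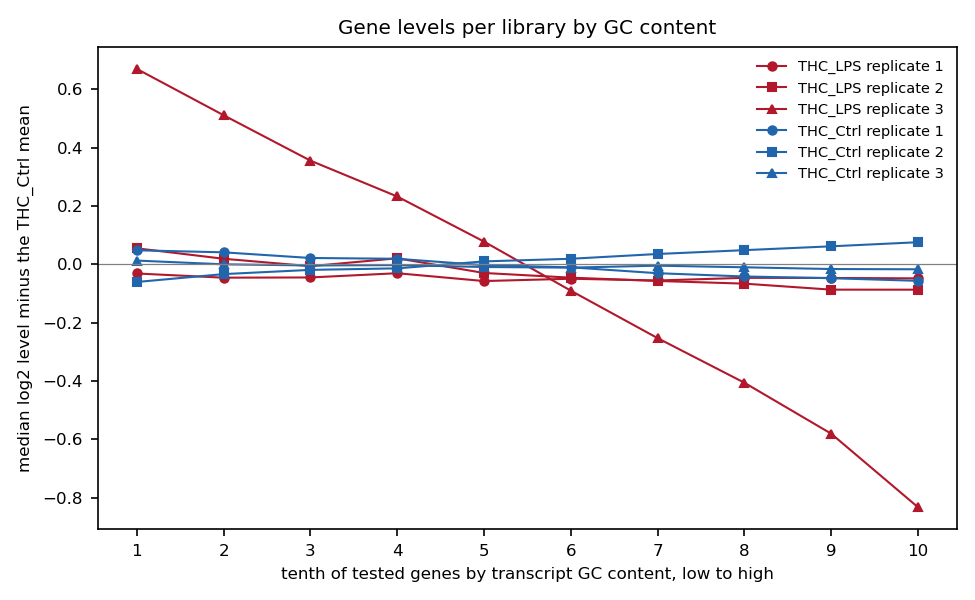
Median log2 level of genes relative to the THC_Ctrl mean (y axis) in 10 bins of transcript GC content from low to high (x axis), for the 3 THC_LPS libraries (red) and the 3 THC_Ctrl libraries (blue). THC_LPS replicate 3 ran from 0.67 in the bin of lowest GC to -0.83 in the bin of highest GC, while the other 5 libraries stayed within 0.09 of 0.

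Promoters are shown for the 3 called genes whose window held an ISRE, so that the interferon element can be seen beside the values of those genes. The windows run from 250 bases before to 50 bases after the annotated start (RefSeq, GRCm38.p6), and are written in the direction of the gene. Capitals mark matches on either strand to the ISRE letters, taken as a pair of GAAA with 2 bases between them.
Gbp7, chr3:142530086-142530385, plus strand: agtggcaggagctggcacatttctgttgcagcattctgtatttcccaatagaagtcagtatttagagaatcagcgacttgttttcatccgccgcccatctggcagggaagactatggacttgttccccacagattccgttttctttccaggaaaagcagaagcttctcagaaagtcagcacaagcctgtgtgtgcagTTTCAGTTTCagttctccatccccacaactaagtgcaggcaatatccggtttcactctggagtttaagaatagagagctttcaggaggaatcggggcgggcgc
Ifit1, chr19:34640639-34640938, plus strand: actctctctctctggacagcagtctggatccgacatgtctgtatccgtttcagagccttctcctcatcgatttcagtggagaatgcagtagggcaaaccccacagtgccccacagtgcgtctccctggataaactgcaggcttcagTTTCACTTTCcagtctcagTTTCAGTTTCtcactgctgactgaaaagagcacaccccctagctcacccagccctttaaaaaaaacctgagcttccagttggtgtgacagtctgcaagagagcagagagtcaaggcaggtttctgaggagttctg
Cybb, chrX:9469275-9469574, minus strand: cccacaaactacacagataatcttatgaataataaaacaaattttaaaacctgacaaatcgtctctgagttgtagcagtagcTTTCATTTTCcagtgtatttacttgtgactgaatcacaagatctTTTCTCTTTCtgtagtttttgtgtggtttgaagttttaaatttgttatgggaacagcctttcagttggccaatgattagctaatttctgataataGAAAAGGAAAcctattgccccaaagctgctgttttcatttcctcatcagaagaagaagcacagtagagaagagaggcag
Gbp7 held 1 match, Ifit1 held 2 and Cybb held 3. RefSeq promoters were found for 14 of the 19 called genes described below, 13 of them higher and 1 lower after LPS. The ISRE letters were present in 3 of the 13 higher genes, against 3.63% of the 12104 tested genes with a promoter and 3.44% of all 32851 promoters. GAS letters (TTCNNNGAA, an element of genes that interferon gamma induces) were present in 3 of 13, against 8.32% of tested genes. AP-1 letters (TGANTCA) were present in 2 of 13, against 6.40% of tested genes. NF-kB, CArG, CRE (TGACGTCA) and GRE (AGAACA, 3 bases, TGTTCT) letters were found in none of these 13 windows, nor in the window of the lower gene Ddit4, and overlapping matches of different motifs were each counted. A match describes only these letters in these windows.

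After THC, LPS was followed by higher levels of 17 genes and lower levels of 2 at an adjusted p under 0.05 (edgeR quasi-likelihood test with Benjamini-Hochberg adjustment). These are 0.0988% and 0.0116% of the 17208 genes tested. The higher genes were those of interferon signalling (Irf7, Ifit1, Gbp7, Samd9l, Ifi204), macrophages and leukocytes (Lyz2, Siglec1, Ptprc, Ctsc, Plac8, Emr4, Ly86, Cybb), vessels (Sele, Ly6a, Igfbp7) and the acute phase (Lcn2). The 2 lower genes were Cyr61, a matricellular protein of the early growth response, and Ddit4, an inhibitor of mTORC1 that stress hormones induce. For each of the 19 genes the 3 THC_LPS libraries lay wholly on one side of the 3 THC_Ctrl libraries, which was so for 9.83% of all tested genes in the higher direction and 13.5% in the lower direction, or 23.3% in all. At an unadjusted p under 0.05 the response held 1683 higher genes (9.78%) and 1654 lower genes (9.61%), in all 3337 genes (19.4%), and the median log2 fold change of all genes was -0.01.

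With the GC trend removed, the same test called 86 higher genes (0.5%) and 28 lower genes (0.163%), and 18 of the 19 genes were among them. Ddit4 was the exception, with an adjusted p of 0.057. A gene is said to be called, or not called, by the edgeR test of all libraries without correction for GC content, unless another fit is named. Removing GC and length trends gave 149 higher (0.866%) and 92 lower (0.535%). DESeq2 called 367 higher (2.41%) and 119 lower (0.783%) of 15203 genes, and voom with sample weights 543 higher (3.16%) and 432 lower (2.51%). The small number of calls depended on single libraries. The count of higher genes was 107, 29 and 21 without THC_LPS replicate 1, 2 and 3, and 0, 2 and 1 without THC_Ctrl replicate 1, 2 and 3. Without THC_LPS replicate 3, the library with the GC trend, 9 of the 19 genes were still called (Lcn2, Irf7, Gbp7, Lyz2, Siglec1, Ptprc, Ctsc, Igfbp7 and Ly86). The other 10 had adjusted p between 0.0542 for Emr4 and 0.115 for Cyr61 in that fit. The count was also 48, 7 and 6 without Veh_LPS replicate 1, 2 and 3 and 17, 14 and 11 without Veh_Ctrl replicate 1, 2 and 3, libraries that enter the contrast through the shared estimate of spread and the choice of genes to test. Lower genes numbered 53, 0 and 1 without THC_LPS replicate 1, 2 and 3 and 0 without any single THC_Ctrl replicate. Single-gene calls are therefore given below with the value in each library. Counts for gene lists are to be read against the shares of all tested genes. Non-overlapping groups were found for 9.83% in the higher and 13.5% in the lower direction. An unadjusted p under 0.05 was found for 9.78% and 9.61%, and the shares called by each other fit are those given here.

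**Figure D2:**
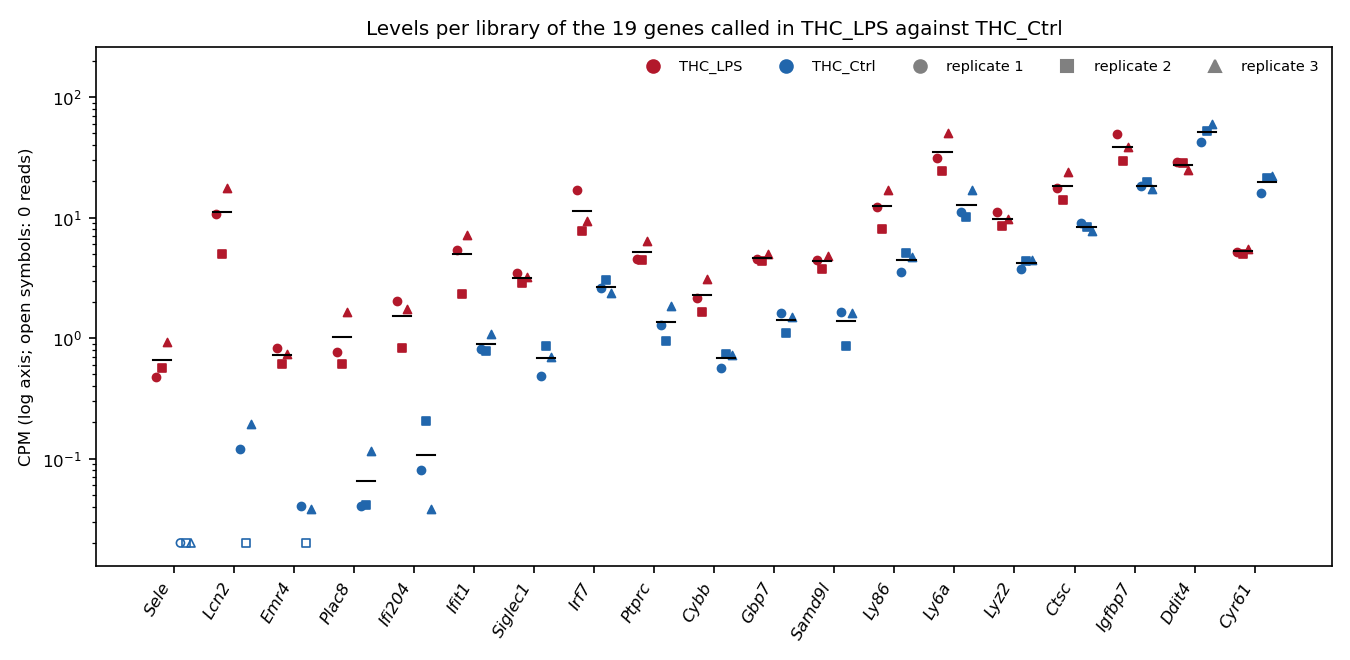
Level in CPM (y axis, log scale) of the 19 called genes (x axis, from highest to lowest fold change) in each THC_LPS library (red, left) and each THC_Ctrl library (blue, right); symbols mark the replicate, bars the group mean where no library was at 0, and open symbols at the foot of the axis libraries with 0 reads. In the 17 genes from Sele to Igfbp7 all red points lie above all blue points, and in Ddit4 and Cyr61 all lie below.

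Irf7, the transcription factor that amplifies type I interferon production, rose in every THC_LPS library. Irf7 (chr7:141262706-141266481) reached 16.9, 7.73 and 9.38 CPM in THC_LPS libraries, against 2.63, 3.04 and 2.35 CPM in THC_Ctrl libraries. Replicate 1 was the highest of the THC_LPS libraries and the lowest of them was still above every THC_Ctrl library. The log2 fold change was 2.08 (standard error 0.26, edgeR adjusted p = 0.0051, n = 3 per group), and 2.24 with GC trends removed (adjusted p = 0.0003).

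Of the 35 tested antiviral effectors, which act on viral RNA, translation, budding or membranes, 2 were called higher and none lower. All 35 had a positive fold change, 28 had all THC_LPS libraries above all THC_Ctrl libraries, and the median log2 fold change was 1.10 against -0.01 over all genes. Taken library by library, the list's median relative to the THC_Ctrl mean was 1.35, 0.87 and 1.06 on the log2 scale. With GC trends removed 8 members passed the test, with DESeq2 20 and with voom 17. Ifit1 (chr19:34640871-34650009), which binds viral RNA that lacks the host cap mark and whose window holds the ISRE pair shown above, had 5.34, 2.31 and 7.23 CPM in THC_LPS libraries and 0.809, 0.7799 and 1.08 CPM in THC_Ctrl libraries. THC_LPS replicate 2 was the lowest of its group and remained clear of the controls, and the rise was 2.47 on the log2 scale (standard error 0.44, edgeR adjusted p = 0.0398). Samd9l (chr6:3372257-3399571), a restriction factor that limits translation in infected cells, was nearly level across the THC_LPS libraries at 4.45, 3.71 and 4.84 CPM, against 1.66, 0.862 and 1.62 CPM in THC_Ctrl libraries (log2 fold change 1.64, standard error 0.29, adjusted p = 0.0398).

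Oasl2, of the oligoadenylate synthetase family, had 12.3, 8.16 and 9.09 CPM in THC_LPS libraries and 5.14, 3.04 and 3.23 CPM in THC_Ctrl libraries, and Ifitm3, a membrane protein that blocks virus entry, had 27.9, 12.6 and 25.2 CPM and 9.55, 7.88 and 10.3 CPM in the same order of groups. Neither passed the edgeR test (adjusted p = 0.0623 and 0.0731), and both passed with GC trends removed (adjusted p = 0.03 and 0.0468). In both genes the groups did not overlap. Trim30a, an interferon-induced regulator of TLR signalling, had 8.19, 4.02 and 10.2 CPM in THC_LPS libraries against 1.05, 1.85 and 3.23 CPM in THC_Ctrl libraries (edgeR adjusted p = 0.0736), and passed with GC trends removed (adjusted p = 0.0487), with DESeq2 (0.000205) and with voom (0.0460). Members of the Ifit, Gbp, Ifi200, H2 and Ly6 families share near-identical sequence, and the strand setting of the counting is not given in the sources used here, so reads may be divided between paralogs or overlapping genes.

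Nucleic acid sensors and interferon-induced GTPases gave 1 higher call each. Ifi204 (chr1:173747293-173766876), a DNA sensor of the Ifi200 family, had 2.02, 0.8296 and 1.76 CPM in THC_LPS libraries against 0.0809, 0.205 and 0.0385 CPM in THC_Ctrl libraries, that is 34, 19 and 36 reads against 2, 5 and 1. It was the called gene with the largest adjusted p (log2 fold change 3.77, standard error 0.69, edgeR adjusted p = 0.0496). Of the 15 tested sensors 9 had non-overlapping groups, all higher, with a median of 0.80. Among those not called were Zbp1, a sensor of Z-form nucleic acids, with 2.85, 1.22 and 0.8797 CPM in THC_LPS libraries against 0.364, 0.287 and 0.231 CPM in THC_Ctrl libraries, and the RNA sensor Ddx58 (RIG-I), with 9.79, 7.903 and 11.4 CPM against 5.74, 4.97 and 5.96 CPM. Zbp1 passed the test with GC trends removed (adjusted p = 0.0468), and Ddx58 did not (adjusted p = 0.0565).

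Gbp7 (chr3:142530338-142550083), a guanylate-binding protein that assembles on vacuoles holding pathogens and whose promoter is printed above, had 4.51, 4.37 and 4.99 CPM in THC_LPS libraries, against 1.62, 1.11 and 1.5 CPM in THC_Ctrl libraries. The THC_LPS libraries differed from each other by less than 1 CPM, and the rise was 1.71 on the log2 scale (standard error 0.23, edgeR adjusted p = 0.0107). Of the 15 tested GTPases 1 was called, 9 had non-overlapping groups in the higher direction, all 15 had positive fold changes and the median was 0.86. Gbp2 had 8.904, 5.06 and 5.42 CPM in THC_LPS libraries and 2.14, 2.05 and 3.31 CPM in THC_Ctrl libraries, and Ifi47, of the immunity-related GTPases, 2.26, 1.09 and 1.81 CPM and 0.324, 0.4105 and 0.654 CPM. Neither passed the edgeR test without GC correction (adjusted p = 0.0736 and 0.0736). Both passed with GC trends removed (adjusted p = 0.0468 and 0.0495), with DESeq2 (0.00112 and 0.00269) and with voom (0.0188 and 0.0411).

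Among 16 IRF and STAT transcription factors Irf7 was the only edgeR call, the median was 0.18, and 2 of 16 had non-overlapping groups, close to the background of 9.83%.

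Antigen presentation genes were mixed. None of the 13 MHC class I genes was called by edgeR, 5 were higher at an unadjusted p under 0.05, and DESeq2 and voom called 1 higher each. 3 had non-overlapping groups and the median was 0.39, made up of medians of 0.64, 0.31 and -0.07 in THC_LPS replicates 1, 2 and 3. H2-Q7, a non-classical class I molecule, had 4.69, 2.75 and 2.05 CPM in THC_LPS libraries against 0.728, 1.07 and 1.39 CPM in THC_Ctrl libraries, with an edgeR adjusted p of 0.0806 and of 0.0351 with GC trends removed. B2m, the common light chain of class I molecules, had 118, 83.7 and 117 CPM in THC_LPS libraries and 71.7, 82.1 and 89.3 CPM in THC_Ctrl libraries. Its THC_LPS replicate 2 lay among the controls, and the log2 fold change of 0.39 did not pass (adjusted p = 0.171).

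Immunoproteasome and peptide-loading genes had a median of 0.04 over 13 members, which turned negative without THC_LPS replicate 1. EdgeR called none, 3 were higher and 1 lower at an unadjusted p under 0.05, and DESeq2 and voom called 1 higher each. Nlrc5, the transactivator of class I genes, had 3.502, 1.88 and 1.52 CPM in THC_LPS libraries and 1.13, 0.903 and 1.42 CPM in THC_Ctrl libraries, with replicate 3 just above the highest control (log2 fold change 0.97, adjusted p = 0.174). Psmb8, a catalytic subunit of the immunoproteasome, had 1.603, 1.14 and 0.684 CPM in THC_LPS libraries and 1.33, 1.601 and 1.23 CPM in THC_Ctrl libraries. These groups overlapped (log2 fold change -0.30, adjusted p = 0.634).

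MHC class II genes, carried by professional antigen-presenting cells, had a median of -0.37 over 10 tested members, which was -0.12 without THC_LPS replicate 3, and no edgeR call. At an unadjusted p under 0.05, 1 was higher and 2 lower, and DESeq2 and voom called 1 higher each. H2-Eb1 had 1.96, 2.14 and 1.12 CPM in THC_LPS libraries and 3.84, 2.38 and 3.27 CPM in THC_Ctrl libraries, a separation in the lower direction that did not pass the test (log2 fold change -0.86, adjusted p = 0.194). Ctss, the protease that trims the class II invariant chain, went the other way, with 45, 39.4 and 38.4 CPM in THC_LPS libraries and 26.1, 26.02 and 34.9 CPM in THC_Ctrl libraries (adjusted p = 0.138). The list's median in THC_LPS replicate 3 was -0.97, against -0.16 and -0.06 in replicates 1 and 2, and its members have a median GC content of 53.4%.

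The called genes known from macrophages and other leukocytes come from several lists or from none. Ptprc (chr1:138063407-138175706), which encodes CD45, the phosphatase on all leukocytes and microglia, had 4.57, 4.45 and 6.402 CPM in THC_LPS libraries, against 1.29, 0.944 and 1.85 CPM in THC_Ctrl libraries. All THC_LPS libraries were above all controls and the rise was 1.91 on the log2 scale (standard error 0.30, edgeR adjusted p = 0.0248). Lyz2 (chr10:117277334-117282274), lysozyme of macrophages and granulocytes, had 11.1, 8.47 and 9.82 CPM in THC_LPS libraries and 3.72, 4.35 and 4.46 CPM in THC_Ctrl libraries, with a log2 fold change of 1.23 (standard error 0.18, adjusted p = 0.0161). Siglec1 (chr2:131069220-131086765), a sialic acid receptor of macrophages that interferon induces, had 3.44, 2.88 and 3.23 CPM in THC_LPS libraries and 0.485, 0.862 and 0.692 CPM in THC_Ctrl libraries, a rise of 2.22 (standard error 0.33, adjusted p = 0.0161). In bulk brain RNA, more cells of a type and more RNA of a gene per cell cannot be told apart.

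Cybb (chrX:9435252-9487771), the catalytic subunit of the phagocyte NADPH oxidase and the gene with 3 ISRE matches, had 2.14, 1.66 and 3.08 CPM in THC_LPS libraries against 0.566, 0.739 and 0.731 CPM in THC_Ctrl libraries (log2 fold change 1.75, standard error 0.31, edgeR adjusted p = 0.0431). Ly86 (chr13:37345345-37419036), the MD-1 partner of the TLR4-like receptor RP105, had 12.3, 8.03 and 16.8 CPM in THC_LPS libraries and 3.52, 5.09 and 4.69 CPM in THC_Ctrl libraries, with THC_LPS replicate 3 the highest (log2 fold change 1.48, standard error 0.25, adjusted p = 0.0341). Ctsc (chr7:88278085-88310888), cathepsin C, the lysosomal protease that activates granule proteases, had 17.5, 13.9 and 23.7 CPM in THC_LPS libraries and 9.06, 8.29 and 7.69 CPM in THC_Ctrl libraries (log2 fold change 1.13, standard error 0.18, adjusted p = 0.0248). In these genes too no THC_LPS library fell among the controls.

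Some low-abundance genes of blood myeloid cells were nearly absent from THC_Ctrl libraries, while others had more reads there than in THC_LPS libraries. Plac8 (chr5:100553725-100572245), expressed in monocytes and granulocytes, had 13, 14 and 34 reads in THC_LPS libraries and 1, 1 and 3 reads in THC_Ctrl libraries, which is 0.772, 0.611 and 1.66 CPM against 0.0405, 0.04105 and 0.115 CPM (log2 fold change 3.84, standard error 0.62, edgeR adjusted p = 0.0248). Emr4 (chr17:55749984-55853662), an adhesion receptor of the F4/80 family, had 14, 14 and 15 reads in THC_LPS libraries and 1, 0 and 1 in THC_Ctrl libraries (adjusted p = 0.0309). Scaled to library size this is a ratio of 26.8, with a 95% exact binomial interval from 6.98 to 228 that covers counting error only. Ly6c2, a marker of inflammatory monocytes, had 1.13, 0.4803 and 0.929 CPM in THC_LPS libraries and 0.202, 0 and 0.0769 CPM in THC_Ctrl libraries and did not pass (adjusted p = 0.0804). Of the 12 tested monocyte and neutrophil markers 8 had non-overlapping groups, all higher, and 1 was called. Their summed CPM was 134, 143 and 123 in THC_LPS libraries and 97.1, 73.6 and 88.9 in THC_Ctrl libraries. Most of this sum came from fibronectin, Fn1, which many other cell types also make, at 103, 111 and 86.3 CPM in THC_LPS libraries and 70.5, 54.5 and 68.3 CPM in THC_Ctrl libraries (adjusted p = 0.113). Another 10 matched markers of these cells were too low to test. In reads over the THC_LPS libraries together against the THC_Ctrl libraries, Ms4a4c had 14 against 0, Ifitm6 21 against 15, Mmp8 9 against 5 and Ly6g 7 against 3. Fewer were counted after LPS for several, with Retnlg at 5 against 7, Mpo at 4 against 7, Elane at 0 against 7, Cd177 at 2 against 11 and Camp at 4 against 25.

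Over the 29 pan-leukocyte and myeloid genes 2 were called higher, 14 had all THC_LPS libraries above the controls, 1 had all below, and the median was 0.67. Among 13 Fc receptor and ITAM adaptor genes, which carry antibody-dependent signals, none was called, 7 had non-overlapping groups in the higher direction and the median was 0.99 (0.66 with voom). At an unadjusted p under 0.05, 9 were higher, and 4 passed with GC trends removed, 5 with DESeq2 and 5 with voom. Fcgr4, a receptor for IgG2 antibodies, had 1.603, 0.262 and 0.782 CPM in THC_LPS libraries and no read in any THC_Ctrl library. Counted against a floor of 3 reads over the THC_Ctrl group, its pooled THC_LPS reads (27, 6 and 16) were 20.4-fold higher, scaled to library size. The edgeR adjusted p was 0.0736, and 0.0404 with GC trends removed. Fcer1g, the signalling chain of Fc receptors, had 12.6, 8.73 and 14.5 CPM in THC_LPS libraries against 6.72, 7.27 and 6.62 CPM in THC_Ctrl libraries (adjusted p = 0.0775, and 0.0389 with GC trends removed). Of the 7 NADPH oxidase genes 4 had higher non-overlapping groups, among them Cybb and the cytosolic subunit gene Ncf1 at 6.47, 5.63 and 7.62 CPM against 3.52, 2.63 and 4.46 CPM (adjusted p = 0.126).

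Complement genes had a median of 0.53 over 17 tested members, and of 0.25 without THC_LPS replicate 1. 6 had non-overlapping groups, all higher. EdgeR called none, 8 were higher at an unadjusted p under 0.05, and 3 passed with GC trends removed, 5 with DESeq2 and 7 with voom. C1qb, part of the recognition molecule of the classical pathway and made in brain chiefly by microglia, had 63.4, 46.3 and 45.1 CPM in THC_LPS libraries against 27.6, 30.4 and 37.3 CPM in THC_Ctrl libraries (log2 fold change 0.70, edgeR adjusted p = 0.0736). With GC trends removed its rise was 0.93 (adjusted p = 0.00609). Itgam, the alpha chain of complement receptor CR3, had 33.7, 30.1 and 33.97 CPM in THC_LPS libraries and 19.1, 17.4 and 25.01 CPM in THC_Ctrl libraries, with adjusted p of 0.0824, and 0.0404 with GC trends removed.

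Markers of other blood lineages differed in direction. Of 22 matched lymphocyte markers 7 could be tested, none was called by edgeR, DESeq2 or voom, 1 was higher at an unadjusted p under 0.05, the median was 0.15, and their summed CPM was 24.99, 23.3 and 25.3 in THC_LPS libraries and 21.7, 19.6 and 24.2 in THC_Ctrl libraries. The defining T cell genes Cd3e and Cd8a had 2 and 1 reads in the THC_LPS libraries together, against 9 and 5 in the THC_Ctrl libraries, while Cd3d and Cd3g had 5 and 1 against 1 and 0. Of the natural killer genes too low to test, Nkg7 had 19 reads against 0, Ncr1 12 against 0, Gzmb 5 against 2 and Klrb1c 5 against 5. Gzma, granzyme A of natural killer and cytotoxic T cells, had 0.534, 0.131 and 0.8797 CPM in THC_LPS libraries and no read in THC_Ctrl libraries. Its pooled THC_LPS reads were 12.5-fold higher than the floor of 3 reads over the THC_Ctrl group, and it did not pass the test (adjusted p = 0.136). Erythrocyte genes were lower, with summed CPM of 252, 328 and 323 in THC_LPS libraries and 432, 474 and 568 in THC_Ctrl libraries. Those sums did not overlap, all 8 tested members had negative fold changes and 6 had non-overlapping groups, yet none was called by edgeR, DESeq2 or voom, and 3 had an unadjusted p under 0.05. Alpha-globin Hba-a1 had 41.4, 60.8 and 30.9 CPM in THC_LPS libraries against 92.7, 92.9 and 142 CPM in THC_Ctrl libraries (adjusted p = 0.2). The part of blood content in the myeloid results was not tested.

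**Figure D3:**
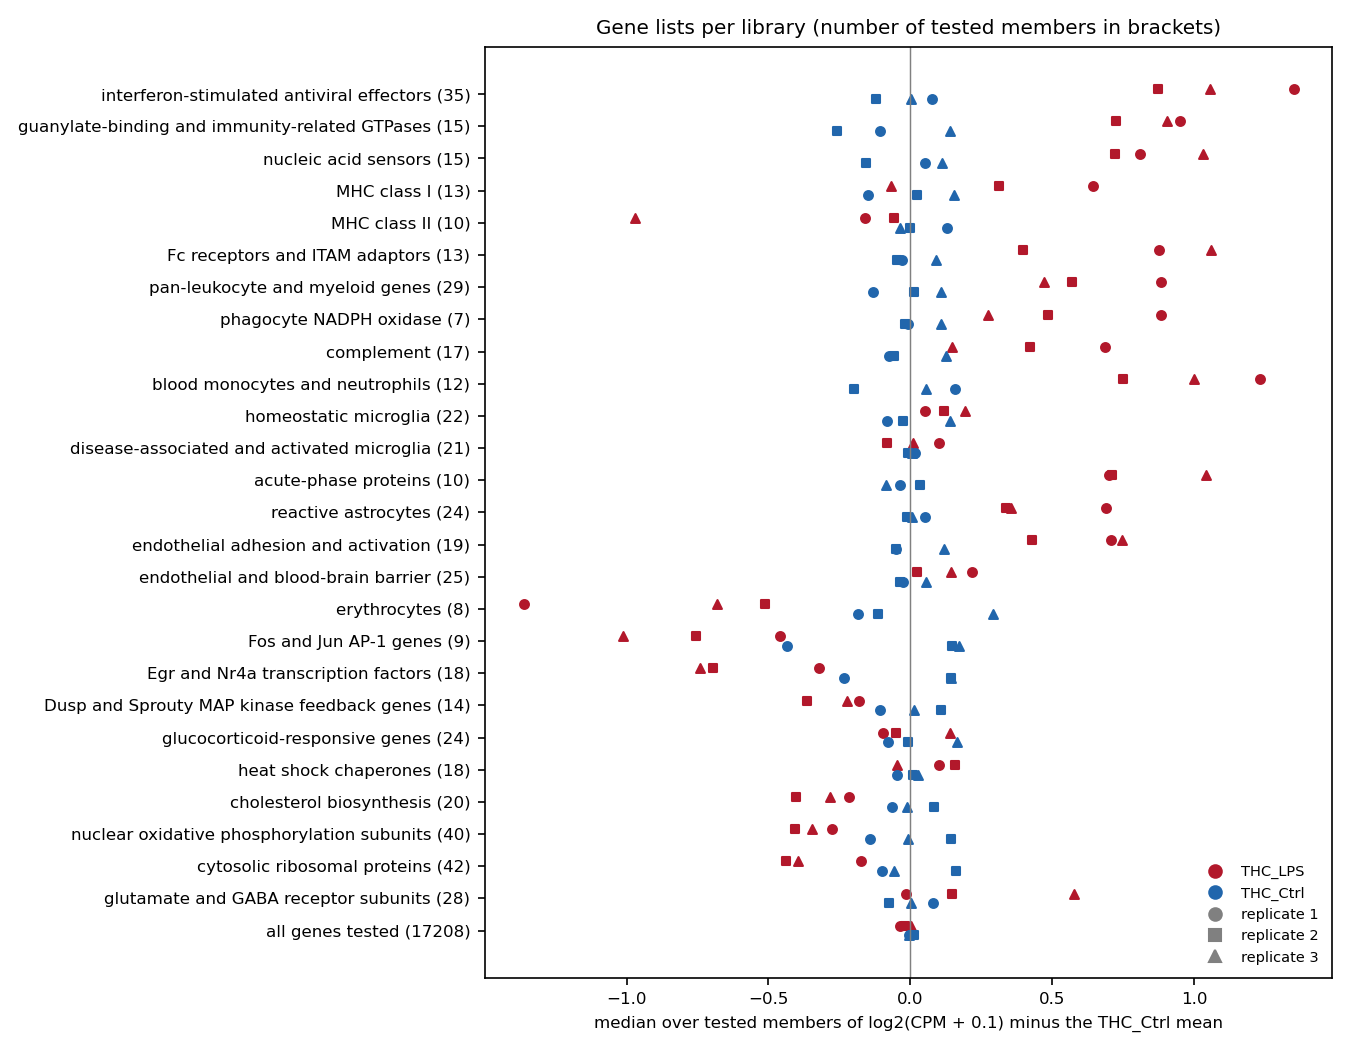
Median over the tested members of each gene list of log2(CPM + 0.1) minus the THC_Ctrl mean (x axis) for each list (y axis, number of members in brackets), with the 3 THC_LPS libraries in red above and the 3 THC_Ctrl libraries in blue below; symbols mark the replicate. Antiviral effectors lie at 1.35, 0.87 and 1.06 in THC_LPS libraries and AP-1 genes at -0.46, -0.76 and -1.01, while all genes tested lie at -0.04, -0.02 and 0.00.

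Microglia, the resident macrophages of the brain, showed no common shift in their homeostatic genes. The 22 tested members had a median of 0.08, with 5 higher and 1 lower non-overlapping gene and no edgeR call. At an unadjusted p under 0.05, 5 were higher and 2 lower, DESeq2 called 4 higher and 1 lower, and voom 3 higher and 1 lower. Cx3cr1, the fractalkine receptor, had 37.1, 38.03 and 38.7 CPM in THC_LPS libraries and 26.7, 22.7 and 30.7 CPM in THC_Ctrl libraries, a separation of 0.51 on the log2 scale with an edgeR adjusted p of 0.124, and of 0.0468 with GC trends removed. Siglech, a lectin of microglia, had 7.66, 7.34 and 9.82 CPM in THC_LPS libraries against 5.097, 4.56 and 4.31 CPM in THC_Ctrl libraries (adjusted p = 0.0821).

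P2ry12, the ADP receptor of surveying microglia, had 16.3, 18.3 and 31.1 CPM in THC_LPS libraries and 20.3, 19.3 and 25.7 CPM in THC_Ctrl libraries. Its high value in THC_LPS replicate 3 set the sign, since the log2 fold change was 0.01 with all libraries, -0.30 without that library and -0.33 with GC trends removed. Tmem119 showed the reverse, with 23.3, 21.1 and 14.5 CPM in THC_LPS libraries and 19.5, 20.1 and 21.97 CPM in THC_Ctrl libraries, and log2 fold changes of -0.07, 0.14 and 0.18 under the same 3 treatments of the data. Neither passed in any of them. Aif1 (Iba1), a marker of microglia and macrophages, had 4.51, 2.18 and 5.52 CPM in THC_LPS libraries and 2.59, 2.09 and 2.54 CPM in THC_Ctrl libraries (adjusted p = 0.22), with replicate 2 at the control level.

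Genes of disease-associated and activated microglia had a median of -0.01, whose sign changed in 14 of 24 alternative fits, and Lyz2 was the call among 21. Lpl, lipoprotein lipase, had 5.52, 6.77 and 11.97 CPM in THC_LPS libraries and 5.42, 3.74 and 4.85 CPM in THC_Ctrl libraries, with replicate 3 highest and replicate 1 barely above the controls (adjusted p = 0.182). Border-associated macrophage genes had a median of 0.19 over 14 members with Siglec1 as the call, and the mannose receptor gene Mrc1 had 5.402, 7.12 and 7.77 CPM in THC_LPS libraries against 4.33, 3.33 and 3.69 CPM in THC_Ctrl libraries (adjusted p = 0.149).

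Among the called genes with reads in both groups, the largest fold change was that of an acute-phase gene. Lcn2 (chr2:32384633-32387797), lipocalin 2, which binds bacterial siderophores and is secreted by reactive astrocytes and endothelium, had 179, 114 and 362 reads in THC_LPS libraries and 3, 0 and 5 reads in THC_Ctrl libraries. This was 10.6, 4.98 and 17.7 CPM against 0.121, 0 and 0.192 CPM, a log2 fold change of 6.64 (standard error 0.74, edgeR adjusted p = 0.00213). THC_LPS replicate 3 was highest and replicate 2 lowest, and each exceeded every control many times over. Saa3, serum amyloid A made locally in inflamed tissue, had 45 reads in the THC_LPS libraries together and 3 in the THC_Ctrl libraries, a ratio of 18.7 (95% exact binomial interval 6.004 to 94.1, counting error only), and did not pass (adjusted p = 0.106). Cp, ceruloplasmin, a ferroxidase of astrocytes, had 21.4, 18.3 and 26.6 CPM in THC_LPS libraries and 12.8, 11.1 and 9.89 CPM in THC_Ctrl libraries (adjusted p = 0.0807). Of 10 acute-phase genes 7 had non-overlapping groups, all higher, with a median of 0.74.

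Reactive astrocyte genes had a median of 0.45 over 24 members (0.26 without THC_LPS replicate 1), with 10 higher non-overlapping genes and Lcn2 as the call. Gfap, the astrocyte intermediate filament, had 328, 251 and 197 CPM in THC_LPS libraries and 226, 239 and 189 CPM in THC_Ctrl libraries. These overlapped, and its log2 fold change of 0.25 did not pass (adjusted p = 0.399). General astrocyte genes had a median of -0.04 over 18 members, which turned positive in the 2 fits without THC_LPS replicate 3.

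Many cytokine genes had too few reads at 24 hours. Of 27 matched genes 16 could be tested, and edgeR called none, DESeq2 2 higher and voom 1 higher. Higher non-overlapping groups were found for 5, as was an unadjusted p under 0.05, and the median was 0.41 (0.69 and 0.68 without THC_LPS replicates 1 and 2). Cxcl10, an interferon-induced chemokine for T cells, had 3.15, 0.917 and 0.782 CPM in THC_LPS libraries and 0.0405, 0.287 and 0.0769 CPM in THC_Ctrl libraries (log2 fold change 3.52, edgeR adjusted p = 0.0736, and 0.0468 with GC trends removed). Il1b had 0.416, 0.175 and 0.538 CPM in THC_LPS libraries and 0, 0.123 and 0.269 CPM in THC_Ctrl libraries, with overlap (adjusted p = 0.361). Tnf had 4 reads in the THC_LPS libraries together and 0 in the THC_Ctrl libraries, Il6 had 3 and 0, and Ccl2 had 21 and 7, all too few to test. Of the others too low to test, Cxcl13 had 11 and 3, Cxcl2 6 and 0, Cxcl9 2 and 0 and Cxcl11 1 and 0. Fewer reads after LPS were counted for Ccl4 (2 and 18), Il10 (0 and 4) and Il12b (0 and 1), and Ifng had none in either group.

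Within the TLR and NF-kB pathway the median was 0.03 over 30 genes, with no edgeR call. At an unadjusted p under 0.05, 2 were higher and 2 lower, DESeq2 called 1 lower, and voom 1 higher and 2 lower. Both unadjusted counts are smaller shares than the 9.78% higher and 9.61% lower over all tested genes. The feedback inhibitors of NF-kB were split. Nfkbia, the inhibitor IkB-alpha, had 17.9, 12.9 and 16.9 CPM in THC_LPS libraries and 20.9, 26.2 and 23.8 CPM in THC_Ctrl libraries (log2 fold change -0.57, adjusted p = 0.118), lower in every THC_LPS library. Bcl3 had 1.19, 1.05 and 0.733 CPM in THC_LPS libraries against 0.688, 0.205 and 0.231 CPM in THC_Ctrl libraries, higher in every one (log2 fold change 1.39, adjusted p = 0.174). Ly96, which encodes MD-2, had 0.772, 0.524 and 1.42 CPM in THC_LPS libraries and 0.364, 0.452 and 0.192 CPM in THC_Ctrl libraries (adjusted p = 0.211).

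3 genes of brain vessels rose. Sele (chr1:164048234-164057677), E-selectin, which captures rolling leukocytes and is made by activated endothelium, had 8, 13 and 19 reads in THC_LPS libraries and none in the THC_Ctrl libraries. Against the floor of 3 reads over the THC_Ctrl group its pooled THC_LPS reads were 16.6-fold higher (edgeR adjusted p = 0.0359). Ly6a (chr15:74994877-74998031), the surface antigen Sca-1 of endothelial cells, had 31.1, 24.4 and 49.9 CPM in THC_LPS libraries and 11.2, 10.1 and 16.9 CPM in THC_Ctrl libraries (log2 fold change 1.47, standard error 0.25, adjusted p = 0.0359). Igfbp7 (chr5:77349240-77408045), a secreted growth factor-binding protein of vascular basement membranes, had 49.1, 29.2 and 38.3 CPM in THC_LPS libraries and 18.2, 19.7 and 17.2 CPM in THC_Ctrl libraries (log2 fold change 1.08, standard error 0.17, adjusted p = 0.0248). In these 3 genes the groups were fully apart.

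Of 19 endothelial activation genes 2 were called (Sele and Lcn2), 11 had higher and 1 had lower non-overlapping groups, and the median was 0.59. Vwf, von Willebrand factor of endothelial granules, had 51.6, 51.5 and 42.4 CPM in THC_LPS libraries against 26.7, 19.2 and 31.5 CPM in THC_Ctrl libraries and fell just short of a call (adjusted p = 0.0518, and 0.00927 with GC trends removed). Lrg1, an inducible glycoprotein of vessels, had 5.22, 3.84 and 2.39 CPM in THC_LPS libraries and 0.8495, 1.19 and 1.19 CPM in THC_Ctrl libraries (adjusted p = 0.0518, and 0.00609 with GC trends removed). General endothelial and blood-brain barrier genes had a median of 0.06 over 25 members, with 6 higher and 4 lower non-overlapping genes. Slc7a5, the large amino acid transporter of the barrier, was lower in each THC_LPS library at 62.3, 63.3 and 54.7 CPM, against 84.3, 95.9 and 92.1 CPM in THC_Ctrl libraries, without a call (log2 fold change -0.59, adjusted p = 0.0731). Dll4, a Notch ligand of arterial and sprouting endothelium, had 2.55, 1.96 and 1.03 CPM in THC_LPS libraries and 4.09, 5.01 and 4.12 CPM in THC_Ctrl libraries, and fell in the fit with GC trends removed (log2 fold change -1.11, adjusted p = 0.0404).

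Cyr61 and Ddit4 were the 2 genes that fell. Cyr61 (chr3:145646971-145649985) (CCN1), an integrin ligand and immediate early gene of growth factor and YAP signalling, had 5.16, 5.02 and 5.52 CPM in THC_LPS libraries and 16.1, 21.3 and 22.2 CPM in THC_Ctrl libraries. The 3 THC_LPS values lay within 1 CPM of each other and far below the controls, and the log2 fold change was -1.92 (standard error 0.31, edgeR adjusted p = 0.0248). In mice given vehicle in adolescence the gene had 3.05, 8.45 and 10.01 CPM in Veh_LPS libraries and 3.85, 5.76 and 5.85 CPM in Veh_Ctrl libraries, so that THC_Ctrl brains held the highest levels of the 4 groups. Ddit4 (chr10:59949675-59951770) had 29.1, 28.3 and 24.9 CPM in THC_LPS libraries and 42.6, 52.01 and 59.2 CPM in THC_Ctrl libraries (log2 fold change -0.90, standard error 0.16, adjusted p = 0.0359), against 31.2, 43.3 and 38.6 CPM in Veh_LPS libraries and 32.3, 41.4 and 36.4 CPM in Veh_Ctrl libraries.

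Of 15 matricellular and YAP target genes only Cyr61 was called and the median was 0.02, a value whose sign changed in 4 of 24 alternative fits. Ctgf (CCN2), a relative of Cyr61, had 11.3, 10.9 and 13.7 CPM in THC_LPS libraries and 15.1, 19.2 and 14.9 CPM in THC_Ctrl libraries (log2 fold change -0.45, adjusted p = 0.216). Its groups were apart, by a smaller margin.

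**Figure D4:**
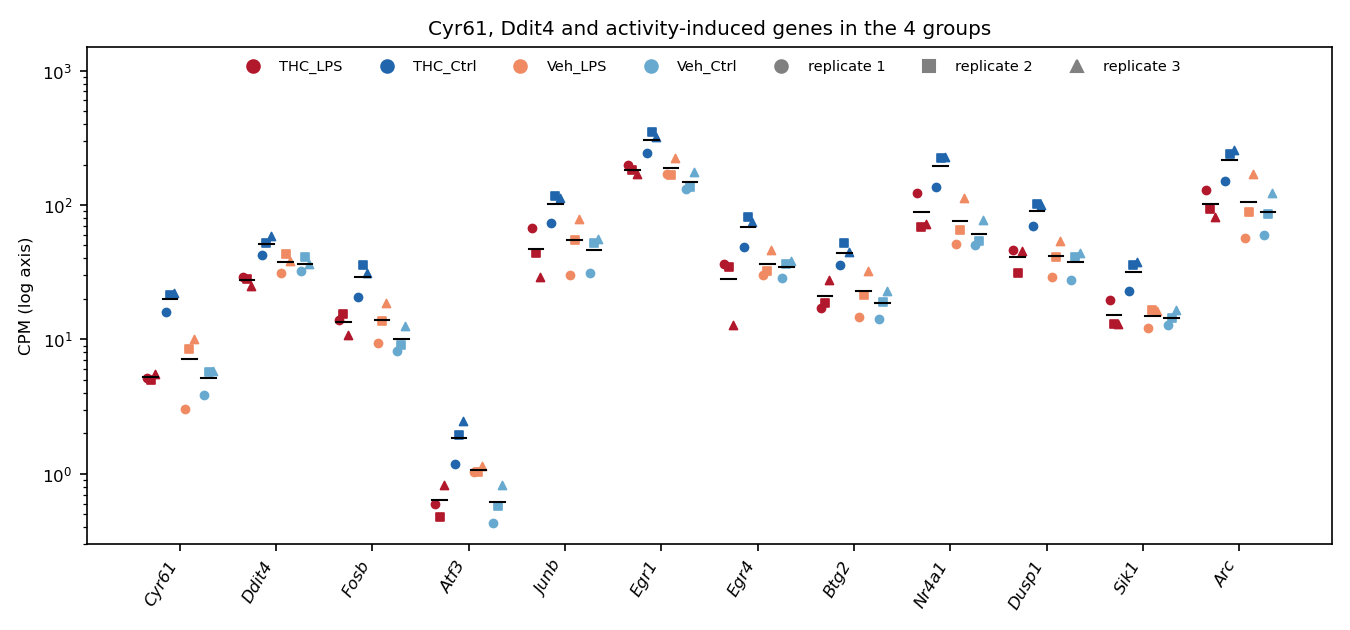
Level in CPM (y axis, log scale) of Cyr61, Ddit4 and 10 activity-induced genes (x axis) in THC_LPS, THC_Ctrl, Veh_LPS and Veh_Ctrl libraries, from left to right within each gene; symbols mark the replicate and bars the group mean. For Cyr61 the THC_Ctrl libraries at 16.1, 21.3 and 22.2 CPM lie above all 9 other libraries, whose highest is in the Veh_LPS group.

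Immediate early transcription factors, which neurons switch on within minutes of activity and other cells on growth signals, were mostly lower in THC_LPS than in THC_Ctrl libraries. EdgeR called none of them. Of 9 Fos and Jun genes 9 had a negative fold change, 6 with an unadjusted p under 0.05, and DESeq2 and voom each called 3 lower. With GC trends removed none of the 9 was called, and their median log2 fold change was -0.50. The median GC content of these genes is 56.0%. Of these 9 genes 5 had all THC_LPS libraries below the controls, and the median was -0.60. Fosb had 14.01, 15.4 and 10.8 CPM in THC_LPS libraries and 20.6, 35.96 and 31.1 CPM in THC_Ctrl libraries (log2 fold change -1.13, edgeR adjusted p = 0.0821, and 0.079 with GC trends removed). Junb had 67.97, 43.97 and 29.3 CPM in THC_LPS libraries against 73.1, 116 and 114 CPM in THC_Ctrl libraries (adjusted p = 0.149, and 0.272 with GC trends removed). Its THC_LPS replicate 1 approached the lowest control. Summed CPM of the 10 matched Fos and Jun genes was 355, 300 and 221 in THC_LPS libraries and 400, 537 and 528 in THC_Ctrl libraries. It was 299, 316 and 365 in Veh_LPS libraries and 265, 343 and 346 in Veh_Ctrl libraries. Every THC_Ctrl sum thus lay above those of the other groups.

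Among 18 Egr and Nr4a family and related genes 16 had a negative fold change, 9 had lower non-overlapping groups and the median was -0.47. At an unadjusted p under 0.05, 8 were lower, DESeq2 and voom each called 4 lower, and 1 passed with GC trends removed. Egr1 had 199, 181 and 171 CPM in THC_LPS libraries and 246, 352 and 318 CPM in THC_Ctrl libraries (log2 fold change -0.73, adjusted p = 0.0821). With GC trends removed its groups overlapped (log2 fold change -0.49, adjusted p = 0.125). Egr4 had 36.3, 34.7 and 12.8 CPM in THC_LPS libraries and 48.9, 80.9 and 75.3 CPM in THC_Ctrl libraries. THC_LPS replicate 3 was the lowest by far, and the gene fell with GC trends removed (log2 fold change -0.89, adjusted p = 0.046) as it did with DESeq2 (adjusted p = 0.0437) and voom (0.0400), but did not pass in edgeR without GC correction (adjusted p = 0.0934). THC_Ctrl replicate 1 was the lowest control for Fosb, Junb, Egr1 and Egr4. Summed CPM of the 18 Egr and Nr4a list genes was 747, 678 and 595 in THC_LPS libraries and 871, 1227 and 1183 in THC_Ctrl libraries. It was 614, 619 and 823 in Veh_LPS libraries and 608, 647 and 670 in Veh_Ctrl libraries, so that the THC_Ctrl sums were again the highest.

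MAP kinase phosphatases and related feedback genes had a median of -0.23 over 14 members, 4 of them lower and 1 higher in non-overlapping groups. That median was -0.10 without THC_Ctrl replicate 2 and -0.12 with GC and length trends removed. EdgeR called none, 3 were lower and 1 higher at an unadjusted p under 0.05, and DESeq2 and voom each called 2 lower. Dusp1 had 45.9, 31.4 and 45.3 CPM in THC_LPS libraries and 69.8, 103 and 101 CPM in THC_Ctrl libraries (log2 fold change -1.16, adjusted p = 0.0736, and 0.108 with GC trends removed). Sik1, a kinase induced by cAMP that restrains CREB co-activators, had 19.8, 13.1 and 12.9 CPM in THC_LPS libraries and 22.7, 35.5 and 37.4 CPM in THC_Ctrl libraries, and fell with GC trends removed (adjusted p = 0.0404). Arc, an effector of synaptic plasticity, had 128, 93.2 and 81.9 CPM in THC_LPS libraries against 152, 239 and 256 CPM in THC_Ctrl libraries (adjusted p = 0.149, and 0.331 with GC trends removed). Mean levels in Veh_LPS and Veh_Ctrl libraries were 41.4 and 37.5 CPM for Dusp1, 14.9 and 14.5 for Sik1 and 105 and 89.1 for Arc. These lay below the THC_Ctrl means of 91.0, 31.9 and 216 CPM.

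The 24 glucocorticoid-responsive genes had a median of -0.06, which turned positive in 2 fits with GC trends removed, with Lcn2 called higher and Ddit4 called lower. Of the 24 genes 5 had higher and 6 had lower non-overlapping groups, against 9.83% and 13.5% of all tested genes. DESeq2 called 3 higher and 3 lower, against 2.41% and 0.783% of the genes it tested. Of 19 clock genes edgeR called none, 6 had lower non-overlapping groups, 2 were higher and 4 lower at an unadjusted p under 0.05, and DESeq2 and voom each called 1 lower. Ciart, a repressor of the clock, had 13.9, 10.4 and 11.97 CPM in THC_LPS libraries and 16.3, 24.1 and 21.4 CPM in THC_Ctrl libraries, and fell with GC trends removed (log2 fold change -0.69, adjusted p = 0.0404).

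Of 40 nuclear-encoded subunits of the respiratory chain edgeR called none, 23 had all THC_LPS libraries below the controls, 23 were lower at an unadjusted p under 0.05 and the median was -0.36 (-0.23 with GC and length trends removed). DESeq2 called 3 lower and voom 17. Ndufv1, a core subunit of complex I, had 127, 117 and 102 CPM in THC_LPS libraries and 160.0, 185 and 169.7 CPM in THC_Ctrl libraries (log2 fold change -0.57, edgeR adjusted p = 0.107). Of 42 cytosolic ribosomal protein genes 24 had lower non-overlapping groups and 20 were lower at an unadjusted p under 0.05. EdgeR and DESeq2 called none and voom 4 lower, with a median of -0.35, and of -0.27 with GC trends removed and -0.16 with GC and length trends removed. Members of these lists are short transcripts, with a median length of 1156 and 1009 bases, and libraries differed in their length trend. Spearman correlations with transcript length were 0.13, 0.39 and 0.21 in THC_LPS libraries and 0.18, -0.33 and -0.26 in THC_Ctrl libraries, and the part of length in these values was not tested beyond that fit.

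Genes of cholesterol synthesis had a median of -0.32 over 20 members, with 11 lower non-overlapping genes and 10 lower at an unadjusted p under 0.05. EdgeR called none, DESeq2 1 lower and voom 6, and 2 passed with GC trends removed and 4 with GC and length trends removed. Mvd, a decarboxylase of the pathway, had 16.9, 14.4 and 8.94 CPM in THC_LPS libraries and 19.9, 26.5 and 24.8 CPM in THC_Ctrl libraries, and fell with GC trends removed (log2 fold change -0.59, adjusted p = 0.0432). Its groups were apart. Of 18 hypoxia and glycolysis genes Ddit4 was the call and 7 had lower non-overlapping groups, among them Pgk1 at 260.5, 243 and 250.2 CPM in THC_LPS libraries against 299, 322 and 319 CPM in THC_Ctrl libraries (adjusted p = 0.199).

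Of 18 heat shock and folding genes 5 had higher non-overlapping groups, 4 were higher at an unadjusted p under 0.05, and the median was 0.11. EdgeR called none, DESeq2 3 higher and voom 5. Hspa5 (BiP), the main chaperone of the endoplasmic reticulum, had 248, 271 and 249.8 CPM in THC_LPS libraries and 202, 163 and 193 CPM in THC_Ctrl libraries (log2 fold change 0.46, adjusted p = 0.118). Pdia4, a disulfide isomerase of the same compartment, had 36.6, 44.6 and 46.3 CPM in THC_LPS libraries against 30.02, 24.4 and 29.9 CPM in THC_Ctrl libraries, and rose with GC trends removed (log2 fold change 0.52, adjusted p = 0.0321).

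The 28 subunits of glutamate and GABA receptors have a median GC content of 44.2%, and their medians were -0.01, 0.15 and 0.58 in THC_LPS replicates 1, 2 and 3. The overall median of 0.22 became 0.05 with GC trends removed and -0.02 with GC and length trends removed. EdgeR called none, 7 were higher at an unadjusted p under 0.05, DESeq2 called 6 higher and voom 7. Even so, Gabra2, a synaptic GABA receptor subunit, had 35.8, 32.05 and 51.5 CPM in THC_LPS libraries against 25.5, 16.6 and 19.7 CPM in THC_Ctrl libraries, with every THC_LPS library above every control. It did not pass in edgeR without GC correction (adjusted p = 0.0656), and rose with GC trends removed (log2 fold change 0.64, edgeR adjusted p = 0.0321), with DESeq2 (adjusted p = 0.000444) and with voom (0.00516). Grm3, a metabotropic glutamate receptor, had 41.02, 39.8 and 48.8 CPM in THC_LPS libraries and 29.98, 26.2 and 29.97 CPM in THC_Ctrl libraries and likewise rose with GC trends removed (adjusted p = 0.0404).

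Endocannabinoid genes held no edgeR call among 20 tested members, with 1 higher and 1 lower at an unadjusted p under 0.05 and 1 lower called by DESeq2 and by voom, and had a median of 0.05, which turned negative without THC_Ctrl replicate 1. The unadjusted counts are smaller shares than the 9.78% higher and 9.61% lower over all tested genes. Cnr1, the CB1 receptor, had 159, 220.2 and 288 CPM in THC_LPS libraries and 199, 178 and 207 CPM in THC_Ctrl libraries. The groups overlapped, and the log2 fold change of 0.19 (adjusted p = 0.555) was 0.02 with GC trends removed. Cnr2, the CB2 receptor, was near the detection limit at 0.356, 0.0437 and 0.147 CPM in THC_LPS libraries and 0.324, 0.04105 and 0.0385 CPM in THC_Ctrl libraries (adjusted p = 0.87). Fabp5, a fatty acid-binding protein that carries endocannabinoids, was lower in each THC_LPS library, at 47.3, 41.04 and 44.5 CPM against 61.4, 75.9 and 63.9 CPM in THC_Ctrl libraries, without a call (log2 fold change -0.60, adjusted p = 0.127).

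Regional and glial markers gave no edgeR call. Voom called 3 lower cerebellar, 1 higher and 3 lower myelin and 2 lower interneuron genes, DESeq2 called 1 higher striatal and 1 higher cortical gene, and the remaining lists had at most 1 call in each direction by each tool. Over the lists of striatal, interneuron, cortical and hippocampal, thalamic and midbrain, hypothalamic and pituitary, cerebellar, Hox, oligodendrocyte, precursor, choroid plexus, pericyte and meningeal genes, medians lay between -0.32 and 0.14. The sign of most of these medians changed in at least 1 alternative fit. Of the 17 cerebellar genes 8 had all THC_LPS libraries below the controls, with summed CPM of 2822, 3227 and 2919 in THC_LPS libraries and 3193, 3057 and 3292 in THC_Ctrl libraries. Slc17a7, the vesicular glutamate transporter of cortical neurons, had 1063, 1131 and 684 CPM in THC_LPS libraries and 1352, 1607 and 1407 CPM in THC_Ctrl libraries (log2 fold change -0.60, adjusted p = 0.149). Opalin, a myelin membrane protein, had 20.3, 16.8 and 14.7 CPM in THC_LPS libraries and 26.6, 32.6 and 32.5 CPM in THC_Ctrl libraries (adjusted p = 0.0987), while Mobp, another myelin gene, had 780.5, 647 and 743 CPM against 547, 485 and 565 CPM (adjusted p = 0.16). The 12 mitochondrially encoded genes had a median of 0.23, high in THC_LPS replicate 3 and negative without it or with GC trends removed. The part of tissue composition in the results above was not tested.

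The fit with GC trends removed added genes beyond the lists. Those with the largest rises and groups apart included Ms4a6d, a macrophage membrane protein, at 2.61, 1.09 and 3.62 CPM in THC_LPS libraries and 0.243, 0.246 and 0.885 CPM in THC_Ctrl libraries (log2 fold change 2.16, adjusted p = 0.0454). Csf2rb, the signalling chain of the GM-CSF and interleukin-3 receptors, had 2.79, 2.45 and 2.69 CPM in THC_LPS libraries and 0.728, 0.944 and 1.19 CPM in THC_Ctrl libraries (log2 fold change 1.60, adjusted p = 0.0468). Pou2f2, the lymphoid and myeloid factor OCT-2, had 5.402, 6.59 and 3.23 CPM in THC_LPS libraries against 1.58, 0.862 and 1.39 CPM in THC_Ctrl libraries (log2 fold change 2.07, adjusted p = 0.0321). Among those that fell were Tnni1, Cep44, Pdlim2, Bad, Csrnp1 and Tob1. Csrnp1, an immediate early nuclear protein, had 10.2, 8.03 and 6.5 CPM in THC_LPS libraries and 11.7, 16.4 and 17.3 CPM in THC_Ctrl libraries (log2 fold change -0.68, adjusted p = 0.0468). Tob1, an antiproliferative protein of the Btg family, had 49.7, 54.8 and 49.7 CPM in THC_LPS libraries and 66.6, 85.6 and 73.6 CPM in THC_Ctrl libraries (log2 fold change -0.67, adjusted p = 0.0321).

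The response after THC was set beside that after vehicle, which uses none of the same libraries. Levels of regional tissue markers differed between the vehicle groups. Summed CPM of Hox and caudal glycinergic genes was 86.6, 80.0 and 83.4 in Veh_LPS libraries and 12.4, 11.4 and 55.3 in Veh_Ctrl libraries, and 3 were called higher. Hypothalamic and pituitary genes summed to 4191 CPM in Veh_LPS replicate 2, against 37.7 and 18.2 in replicates 1 and 3. The part of tissue content in this comparison was not tested. After vehicle 107 genes were called higher (0.622% of 17208) and none lower, with 797 higher (4.63%) and 485 lower (2.82%) at an unadjusted p under 0.05. 15 genes were called in both responses, which is 78.9% of the 19 called after THC and 14.0% of the 107 called after vehicle. Of those 107 genes, 102 had a positive log2 fold change after THC and 79 had all THC_LPS libraries above all THC_Ctrl libraries. Their median log2 fold change was 0.87 after THC and 1.60 after vehicle, and as they were chosen for passing in the vehicle libraries the second value is favoured by that choice. Called after THC and not after vehicle were Ptprc, Samd9l, Cyr61 and Ddit4.

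The difference between the responses was itself tested. No gene passed in the interaction of THC with LPS (edgeR, 17208 genes), where 1167 genes (6.78%) had an unadjusted p under 0.05. DESeq2 called 1 gene, Cyr61, and voom called 0, and without Veh_LPS replicate 1 edgeR also called Cyr61 (adjusted p = 0.0015). Cyr61 had the smallest edgeR p, with an interaction of -2.42 on the log2 scale (standard error 0.44, unadjusted p = 4.8e-05, adjusted p = 0.71). Next came Hoxb6, a gene of caudal tissue, with 0.237, 0.393 and 0 CPM in THC_LPS libraries and 0.769, 1.48 and 0 CPM in THC_Ctrl libraries, against 1.74, 1.71 and 1.56 CPM in Veh_LPS libraries and none in Veh_Ctrl libraries (unadjusted p = 0.000186). Psmb8 followed, which had 3.05, 2.46 and 3.58 CPM in Veh_LPS libraries and 0.667, 0.787 and 1.08 CPM in Veh_Ctrl libraries, a rise of 1.85 after vehicle (adjusted p = 0.0107) beside the -0.30 after THC given above (interaction -2.14, standard error 0.46, unadjusted p = 0.000278, adjusted p = 0.71). A call in one response and not in the other does not show that the responses differ, and with 3 libraries per group the edgeR test over all 12 libraries did not separate them for any gene.

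For the interferon genes the levels reached after LPS can be read side by side. Irf7 had 16.9, 7.73 and 9.38 CPM in THC_LPS libraries and 17.5, 19.1 and 19.6 CPM in Veh_LPS libraries, and its log2 fold change was 2.08 after THC and 3.15 after vehicle (interaction -1.07, unadjusted p = 0.00955, adjusted p = 0.71). B2m had log2 fold changes of 0.39 after THC and 0.90 after vehicle (interaction -0.51, edgeR adjusted p = 0.71). The other interferon genes called after THC had interactions of both signs. These were -0.03 for Gbp7, 0.11 for Ifit1, 0.59 for Samd9l and 0.69 for Ifi204, none of them called. As these genes were chosen for passing in the THC libraries, their values after THC are favoured by that choice. Among interferon genes not called after THC, the interactions of Oasl2, Ifitm3, Zbp1, Ddx58 and Gbp2 were -0.70, -0.70, -1.07, -0.34 and -0.28. That of Ifi47 was 0.53, and these too were not called. Over the 35 antiviral effectors the median was 1.10 after THC and 1.59 after vehicle, with 2 and 17 members called, and 7 members had an unadjusted interaction p under 0.05, against 6.78% of all genes. Some other lists held larger shares at that threshold. They included 5 of 9 Fos and Jun genes, 8 of 14 Hox and caudal glycinergic genes and 11 of 24 glucocorticoid-responsive genes. Egr and Nr4a genes had 7 of 18 and cytosolic ribosomal protein genes 15 of 42. MHC class I genes had 6 of 13, with no member called after THC (median 0.39) and 6 called higher after vehicle (median 0.90). Complement genes had 6 of 17, MAP kinase feedback genes 5 of 14, glutamate and GABA receptor genes 9 of 28 and immunoproteasome and peptide-loading genes 4 of 13. Lcn2 had log2 fold changes of 6.64 after THC and 6.89 after vehicle, with an interaction of -0.25 (standard error 1.58).

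**Figure D5:**
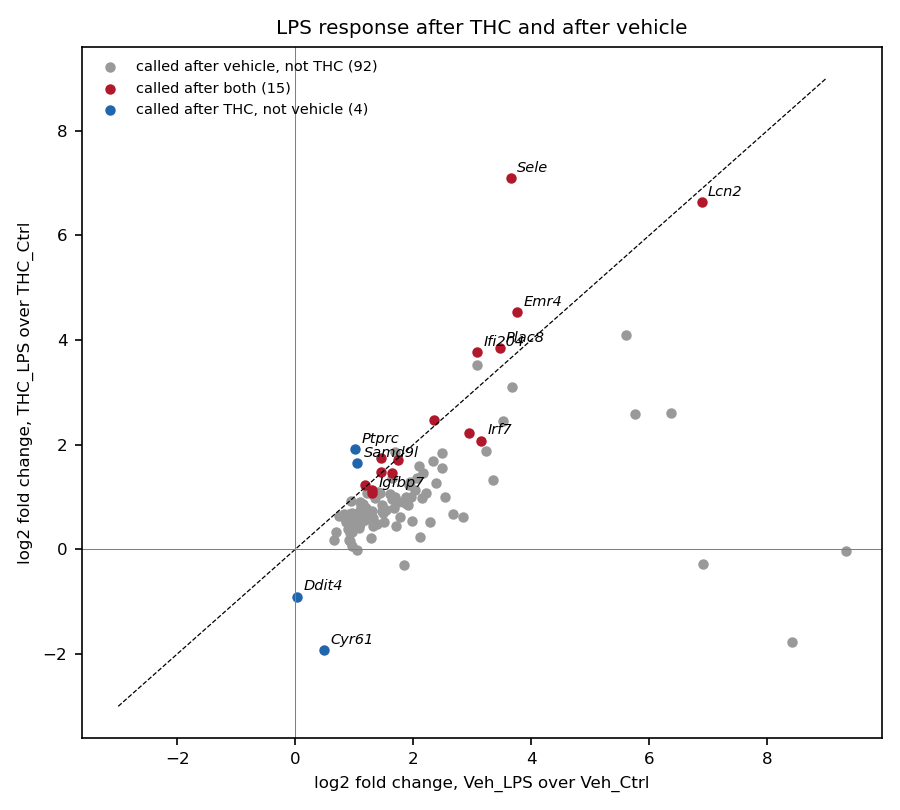
Log2 fold change of THC_LPS over THC_Ctrl (y axis) against that of Veh_LPS over Veh_Ctrl (x axis) for the 111 genes called in either response; the dashed line marks equal values, and fitted values of genes with a group at 0 reads depend on the offset of the fit. Irf7 lies at 2.08 and 3.15, Lcn2 at 6.64 and 6.89, and Cyr61 at -1.92 and 0.49.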

How the data were processed

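Raw read counts per gene from the authors' 12 deposited per-sample tables were joined by gene ID into 25556 genes. Per the submitters' processing notes the upstream tools were STAR 2.5, HTSeq and DESeq2 with mm10 as the genome build, listed without roles or settings. Strandedness, library preparation and read length were not found in the labels. The deposited columns of normalized or adjusted values were not used. Counts were tested with edgeR 4.0.16 (R 4.3.3) by the quasi-likelihood test with TMM scaling, filterByExpr and robust fitting over all 12 libraries as 4 groups of 3, so that they shared 1 estimate of spread. The contrasts were THC_LPS minus THC_Ctrl, Veh_LPS minus Veh_Ctrl and their difference. Calls used a Benjamini-Hochberg adjusted p under 0.05. Levels are CPM, computed from the deposited counts on TMM-scaled library sizes, and they are not compared between genes. Standard errors are approximate, being the fold change divided by the square root of its F statistic.

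GC trends were removed through edgeR offsets from a loess curve (span 0.5) of each library on transcript GC content, known for 98.7% of genes. DESeq2 1.42.0 and limma 3.58.1 (voom with sample weights) were alternatives, with other scalings and filters, only the 6 compared libraries, and each library left out. The edgeR test, its fits with GC trends or GC and length trends removed, DESeq2 and voom were first run on simulated counts. Those counts held no GC or length trend, so they cannot check the removal of such trends. The other alternatives were not simulated. List medians per library used log2(CPM + 0.1). No 2 libraries of a group were near-identical: the lowest chi-square per degree of freedom between their counts was 12.3. A gene with 0 reads in a group was compared with a floor of 3 reads over that group, and setting such genes to that bound left the list medians where they were. Intervals cover counting error only. The floor covers counting error of the group at 0 reads and leaves out the spread of the other group.

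The 52 gene lists matched 1004 of 1012 entries. Members and lists were chosen with earlier results of these data known. Genes are named by rule: all called genes, members of each list with the smallest p, a short set of standard genes, the 3 with the smallest interaction p, and the largest changes called with GC trends removed. Beyond the rule, genes too low to test are named for their read totals. Some genes that the rule selects are not reported here.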

Additional observations from a re-analysis of the deposited data

Results flagged for a closer look

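For 3 of the 96 named genes every THC_LPS library lay on one side of the THC_Ctrl libraries while every Veh_LPS library lay on the opposite side of the Veh_Ctrl libraries. Atf3, a stress-induced transcription factor of the AP-1 group, had 0.594, 0.4803 and 0.831 CPM in THC_LPS libraries and 1.17, 1.93 and 2.46 CPM in THC_Ctrl libraries (log2 fold change -1.54, edgeR adjusted p = 0.113). After vehicle it had 1.03, 1.02 and 1.15 CPM in Veh_LPS libraries and 0.432, 0.5798 and 0.8304 CPM in Veh_Ctrl libraries (log2 fold change 0.80), and the interaction had an unadjusted p of 0.00056 and an adjusted p of 0.71. Nfkbia, with the THC values given above and a log2 fold change of -0.57, had 18.8, 21.4 and 18.2 CPM in Veh_LPS libraries and 17.04, 16.4 and 15.7 CPM in Veh_Ctrl libraries (interaction unadjusted p = 0.00104, adjusted p = 0.71). Rgs5, a regulator of G protein signalling found in pericytes, had 65.8, 69.99 and 92.6 CPM in THC_LPS libraries and 60.9, 50.7 and 48.01 CPM in THC_Ctrl libraries, a log2 fold change of 0.52, against 52.9, 52.8 and 69.8 CPM in Veh_LPS libraries and 77.6, 74.5 and 73.95 CPM in Veh_Ctrl libraries (interaction unadjusted p = 0.000865, adjusted p = 0.71). None of these interactions passed the adjustment over all genes, and no explanation for them was tested.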

How the results depend on the processing

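Against 17 higher and 2 lower genes after THC, DESeq2 gave 367 and 119, voom 543 and 432, no low-count filter 129 and 20, a filter of 1 CPM in 3 libraries 11 and 1, the fit of only the 6 libraries 1 and 1, GC trends removed 86 and 28, and GC and length trends removed 149 and 92. Upper-quartile scaling gave 1 lower gene. Leaving out 1 library gave 0 to 107 higher and 0 to 53 lower genes. With GC trends removed and without THC_LPS replicate 3 they were 25 and 2. The interaction count was 1 with DESeq2 and 0 to 1 with 1 library left out. After vehicle the count of 107 became 216 with DESeq2, 1895 with voom, 165 with GC trends removed, 183 with GC and length trends removed, 210 with GC trends removed and without THC_LPS replicate 3, and 33 to 197 with 1 library left out. The causes were not tested.

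With the replicate number as a block, 14 higher and 5 lower genes were called after THC, and 31 and 13 with GC trends removed and the block. Deviations of same-numbered THC_LPS and THC_Ctrl libraries from their group means correlated at -0.17, 0.06 and 0.05. Those of different-numbered libraries correlated at -0.16 to 0.18. The labels do not say that replicate numbers mark pairs, and so few libraries, 1 of them with a strong GC trend, cannot settle whether they do.

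Of 2290 alternative values for 96 named genes, 1834 kept direction and call, 148 lost the call, 284 gained it and 24 changed sign, in 6 genes. P2ry12 turned to -0.34 with voom, -0.0044 with the replicate block, -0.33 with GC trends removed, -0.33 with GC trends removed and the block, -0.30 with GC and length trends removed, -0.35 with GC trends removed and without THC_LPS replicate 3, and ranged from -0.30 to 0.18 with 1 library left out (-0.043 and -0.073 without THC_Ctrl replicates 1 and 2). Tmem119 turned to 0.050, 0.18, 0.18, 0.22 and 0.18 under voom, GC, GC with block, GC with length, and GC without THC_LPS replicate 3, and ranged from -0.20 to 0.14 with 1 library left out. Cnr1 turned to -0.017 with voom, -0.076 with GC and length trends removed and -0.030 with GC trends removed and without THC_LPS replicate 3, and ranged from -0.0038 to 0.38 with 1 library left out. Cnr2 ranged from -0.50 to 1.98 with 1 library left out, and was -0.061 and -0.090 without THC_Ctrl replicates 2 and 3. Psmb8 turned to 0.014 with GC trends removed and without THC_LPS replicate 3, and Hoxb6 to 1.16 with voom. After THC none of these genes was called in the edgeR fit of all libraries. Sequencing depth limits genes under about 1 CPM, where single reads move the values.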
